A study of Mus musculus with 6 samples.

Results

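The genes described here are those of the proteasome. They were taken as every gene with a mouse symbol of the Psma to Psmg families followed by a number that was read by at least 1 probe set with a single gene symbol, where a probe set stands for the short oligonucleotides on the array that read one transcript. Of the 18193 genes measured, 49 met this rule, and they were read by 103 of the 34945 probe sets with a single symbol. A single probe set read 22 of them and more than 1 read the other 27. They comprise 8 genes of the 20S alpha ring, 7 constitutive and 4 tissue-restricted genes of the 20S beta ring, 6 ATPases and 11 non-ATPase subunits of the 19S regulatory particle, 3 chaperones of 19S assembly, 4 chaperones of 20S assembly, 3 activators and 1 inhibitor. The remaining 2, Psmc3ip and Psme3ip1, match by symbol and do not encode subunits. Psme2, which encodes an activator subunit, was read here only by a probe set that is shared with Psme2b, and was not analysed.

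Liver RNA was compared between 3 Dnajb4+/+ mice, labelled wild-type (HLJ1+/+), and 3 Dnajb4-/- mice, the HLJ1 knockout. By the labels, all were untreated male mice of strain C57BL/6, aged 6 to 8 weeks, with 1 Affymetrix expression array for each mouse. The knockout was made by gene targeting in mouse embryonic stem cells, and no restriction of it to a cell type is given in the sources used here. Dnajb4 encodes HLJ1, a heat shock protein of the DnaJ family that works with Hsp70 chaperones. In whole liver, fewer cells of a type and less RNA per cell cannot be told apart.

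The proteasome degrades proteins that carry ubiquitin chains. Its 20S core is a barrel of stacked rings, of which the outer alpha rings gate the entrance and the inner beta rings hold the proteolytic sites. The 19S particle caps the barrel, binds the ubiquitylated protein, removes the ubiquitin and unfolds and feeds the chain into the core with its ring of ATPases. After exposure to interferon, and constitutively in immune cells, the catalytic beta subunits are replaced by inducible ones, which gives the immunoproteasome. Liver cells use the proteasome to clear misfolded proteins and to turn over short-lived regulators.

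Values are normalized intensities on a linear scale, averaged on the log2 scale over the probe sets of a gene, and differences are log2 values of Dnajb4-/- minus Dnajb4+/+. Levels of different genes are not comparable on this array. Array medians lay between 31.8 and 32.5, and the number of arrays limits the precision. Over all genes, which are not independent replicates, Pearson's r was 0.9982 to 0.9985 within a genotype and 0.9935 to 0.9948 between genotypes. The brightest Dnajb4 probe set was lower in Dnajb4-/- livers (589 ± 23.5 against 466 ± 13.6, SD, n = 3, -0.34, adjusted p = 0.0100 over all probe sets, limma), while the mean over its probe sets did not pass (-0.14, adjusted p = 0.145). Which part of the gene was deleted is not given in the sources used here, so the probe sets do not check the labels. Against the label of male mice, Xist had a signal of 385 ± 19.4 in the wild type against 16.2 ± 1.58 in the knockout (SD, n = 3), while of 3 Y-linked genes Eif2s3y read 68.7 ± 5.34 against 79.5 ± 1.99 (SD, n = 3), above the array medians in both genotypes, and Kdm5d and Uty lay below those medians in both. The ratio of 3' to 5' signal was higher in every Dnajb4-/- array, at 1.45 ± 0.0265 against 1.17 ± 0.0134 for Gapdh and 3.17 ± 0.0602 against 2.65 ± 0.0485 for Actb (SD, n = 3). Both gave p = 0.1 in a two-sided exact permutation test, which with 3 arrays per genotype cannot give less. All Dnajb4+/+ arrays share the Xist signal and all Dnajb4-/- arrays the higher ratio, so for no gene below can these be told apart from the genotype.

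The proteasome genes did not move together between the genotypes. Of the 49 genes, 6 (12.2%) rose and 3 (6.12%) fell in Dnajb4-/- livers, and the other 40 stayed outside the threshold (limma, adjusted p under 0.05 over all genes), where of all 18193 genes 5.09% were higher and 9.57% were lower. The median log2 difference of the 49 genes was -0.0077, beside 0.0075 for all genes, and 24 lay above 0 and 25 below it. The median absolute difference was 0.072, beside 0.084 for all genes. The genotypes did not overlap in 24 genes, 11 with every Dnajb4-/- array above every Dnajb4+/+ array and 13 with every one below, where such genes made up 16.1% and 19.4% of all genes. Split by complex, all 6 higher genes encode 19S subunits, of which 17 were measured, none of them lower. Of the 15 genes of the 20S core other than the tissue-restricted beta subunits, a count that includes the germ cell subunit Psma8, none was higher and 1, Psmb7, was lower. The other lower genes were Psmb10, of the immunoproteasome, and Psmd9, a chaperone of 19S assembly.

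**Figure D1:**
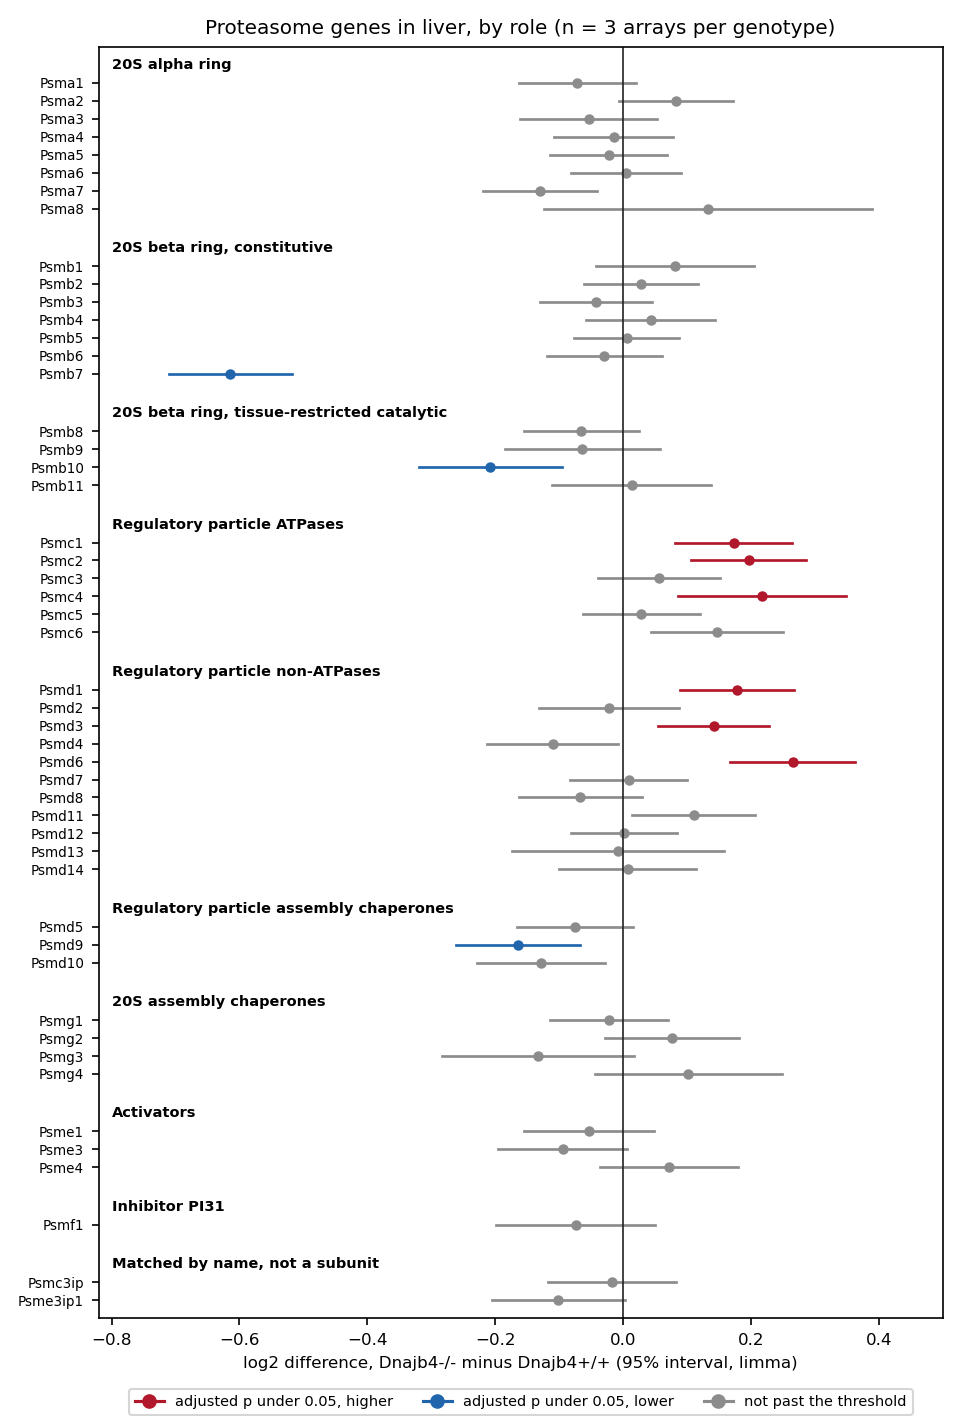
Log2 difference (x axis, Dnajb4-/- minus Dnajb4+/+) of each of the 49 proteasome genes, by role, with the 95% interval from limma (n = 3 arrays per genotype). The 6 genes past the threshold on the right (red) are ATPases and non-ATPases of the 19S regulatory particle, and of the 3 on the left (blue) Psmb7 lies farthest out at -0.61.

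Psmb7 encodes the constitutive beta subunit with the trypsin-like activity and had the largest difference of the 49 genes. The Dnajb4+/+ arrays read 2932, 2922 and 2976 and the Dnajb4-/- arrays 1877, 1998 and 1896. Every Dnajb4-/- array thus lay far below every Dnajb4+/+ array, beyond the spread within either genotype. The log2 difference was -0.61 (standard error 0.04, adjusted p = 0.000176, limma), a level 34.7% lower. A single probe set read the gene, so no second measurement of it was available on the array. The call held in all 18 alternative settings run, with differences of -0.64 to -0.58. Whether that probe set also reads the RefSeq pseudogenes Psmb7-ps1 and Psmb7-ps2 was not analysed.

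The other constitutive catalytic subunits did not follow Psmb7. Psmb5, which carries the chymotrypsin-like site, read 2113, 2108 and 2131 in Dnajb4+/+ and 2103, 2134 and 2141 in Dnajb4-/- livers, and the genotypes overlapped. Its difference was 0.0056, with a 95% interval of -0.077 to 0.088 (adjusted p = 0.934, limma). Psmb6, which carries the caspase-like site, read 1983, 2071 and 2071 in Dnajb4+/+ and 1980, 2021 and 2001 in Dnajb4-/- livers, also with overlap. The difference of Psmb6 was -0.029, with a 95% interval of -0.12 to 0.061 (adjusted p = 0.664). The structural beta subunits Psmb1, Psmb2, Psmb3 and Psmb4 lay between -0.042 (Psmb3) and 0.081 (Psmb1), and none passed. Of the 8 alpha subunits, which form the gate of the core, none passed either, and their median difference was -0.018. This sign depended on the probe sets: with the brightest one of each gene the median of the alpha subunits was 0.078, and again none passed. With that choice 5 of the 8 had all Dnajb4-/- arrays above all Dnajb4+/+ arrays and 1 had all below. Such genes made up 16.1% and 19.4% of all genes with the mean over probe sets. Their share with the brightest one is not given here. The member of that ring with the largest difference was Psma8, a subunit of germ cells, at 0.13 (adjusted p = 0.468), with signals of 38.0 ± 5.43 and 41.5 ± 3.33 (SD, n = 3) near the array median. Psma7 lay just outside the threshold at -0.13 (1620, 1595 and 1617 against 1441, 1510 and 1466, adjusted p = 0.0637) with no overlap.

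Psmb10, which takes the place of Psmb7 in the immunoproteasome, was also lower in Dnajb4-/- livers. The arrays read 515, 566 and 553 in Dnajb4+/+ and 480, 472 and 463 in Dnajb4-/- livers, without overlap. The log2 difference was -0.21 (standard error 0.05, adjusted p = 0.0297, limma), or 13.4% lower. The call held without Dnajb4+/+ replicate 1 (adjusted p = 0.0280) and was lost without any other single array (0.0661 to 0.0924). The difference stayed at -0.25 to -0.18 without single arrays, and over all genes the lower calls then fell from 1741 to between 1036 and 1352. The Psmb10 call was also lost with quantile normalization (0.0885) and with the arrays centred on their brighter probe sets (0.0616). Psmb8, the inducible partner of Psmb5, differed by -0.065 (78.0, 74.8 and 77.0 against 72.6, 72.5 and 74.5, adjusted p = 0.308). This mean joins a probe set with signals of 12.0 and 12.2, far below the array medians, to one that read 468, 481 and 517 in Dnajb4+/+ and 438, 446 and 432 in Dnajb4-/- livers. That brighter probe set of Psmb8 had no overlap and differed by -0.15 (adjusted p = 0.0787 with the brightest probe set of each gene, limma). Psmb9, the inducible partner of Psmb6, differed by -0.063 (368, 360 and 380 against 332, 368 and 361, adjusted p = 0.466). Psmb11, the beta subunit of the thymus, read 20.2 ± 0.965 and 20.4 ± 0.850 (SD, n = 3), below the array medians, and its difference was 0.013.

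The balance of inducible to constitutive subunit was followed in each array as the log2 ratio of the members of a pair, set to the Dnajb4+/+ mean. For Psmb10 over Psmb7 the Dnajb4-/- arrays lay at 0.47, 0.35 and 0.40 and the Dnajb4+/+ arrays at -0.074, 0.067 and 0.0070, without overlap. The ratio was thus 32.6% higher in Dnajb4-/- livers although both genes were lower, since Psmb7 differed by more (difference of log2 ratios 0.41, exact permutation test, two-sided, p = 0.1, adjusted p = 0.15 over 3 pairs). For Psmb8 over Psmb5 the difference was -0.071 (exact permutation p = 0.1, adjusted p = 0.15), again without overlap, and it was -0.16 with the brightest probe set of each gene (exact permutation p = 0.1). For Psmb9 over Psmb6 the difference was -0.034 (exact permutation p = 0.5, adjusted p = 0.5), with overlap. With 3 arrays per genotype the exact permutation test cannot go below p = 0.1, so no pair could pass.

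**Figure D2:**
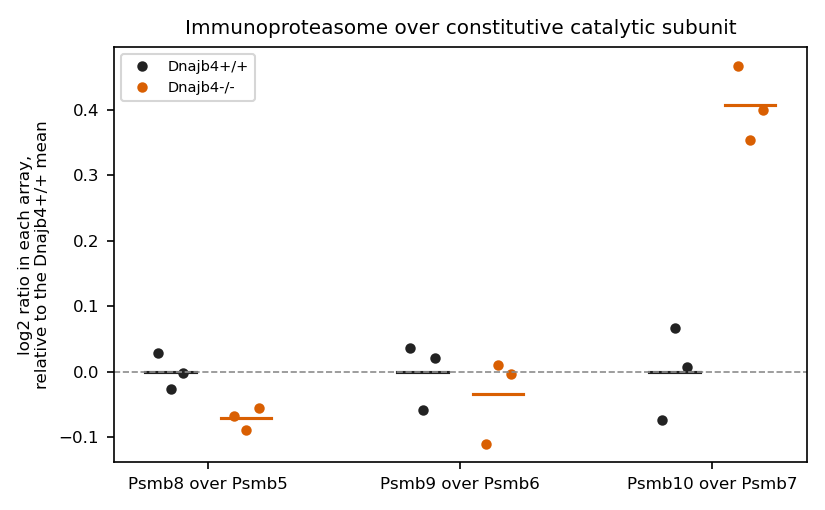
Log2 ratio of each inducible catalytic subunit over the constitutive one it replaces, per array (points), set to the Dnajb4+/+ mean, with the mean of each genotype as a line (n = 3). The ratio of Psmb10 over Psmb7 lies at 0.35 to 0.47 in the Dnajb4-/- arrays, above all Dnajb4+/+ arrays, that of Psmb8 over Psmb5 at -0.089 to -0.055, below all of them, and that of Psmb9 over Psmb6 at -0.11 to 0.010, among them.

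Immune cells carry the immunoproteasome, so markers of these cells were set beside Psmb10. Over all genes, 5.09% were higher and 9.57% lower. Of 12 markers of Kupffer cells and macrophages, 10 were lower in Dnajb4-/- livers (median -0.35), among them Vsig4, a complement receptor of Kupffer cells (973 ± 24.2 against 668 ± 9.24, SD, n = 3, -0.54), and Cd68 (-0.57). Their summed signal was 6275 to 6618 in Dnajb4+/+ and 4840 to 5074 in Dnajb4-/- arrays. The defining markers Clec4f (695 ± 16.3 and 569 ± 5.35, SD, n = 3) and Adgre1 (244 and 221, adjusted p = 0.159) were read in both genotypes. Of 12 markers of T cells, B cells and NK cells, 1 was lower, Nkg7 (-0.30), and their summed signal was 343 to 350 against 337 to 343. None of 7 dendritic cell markers passed (178 to 190 against 184 to 196), and 4 of 8 endothelial markers were lower (1684 to 1764 against 1487 to 1557). Of 10 hepatocyte markers 2 were higher and 1 was lower, with a median of -0.015 (summed signal 140567 to 141267 against 137400 to 138105). Such sums follow the brightest markers most. All 8 skeletal muscle markers were lower (679 to 738 against 308 to 323), and of 3 erythroid markers none passed. The part of these cells in the difference of Psmb10 was not tested.

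The 19S ATPases, which form the unfolding ring, lay above 0 as a group. All 6 had a positive difference, from 0.029 (Psmc5) to 0.22 (Psmc4), with a median of 0.16, and 3 were higher past the test. With the brightest probe set of each gene the median was 0.094, Psmc6 turned to -0.053, Psmc2 did not pass (0.13, adjusted p = 0.129, limma) and 2 were higher. Psmc4 read 1061, 956 and 994 in Dnajb4+/+ and 1192, 1202 and 1106 in Dnajb4-/- livers (0.22, standard error 0.06, adjusted p = 0.0425, limma). Psmc2 read 331, 348 and 338 against 385, 387 and 393 (0.20, standard error 0.04, adjusted p = 0.0164). Psmc1 read 83.4, 82.0 and 84.9 against 91.5, 95.6 and 95.2 (0.17, standard error 0.04, adjusted p = 0.0281). In each of these the Dnajb4-/- arrays lay above all Dnajb4+/+ arrays, and the rises amounted to 16.3%, 14.6% and 12.7%. Psmc6 lay just outside the threshold at 0.15 (adjusted p = 0.0674), with arrays of 756, 707 and 737 against 816, 832 and 789. Psmc3 (0.057, adjusted p = 0.403) and Psmc5 (0.029, adjusted p = 0.671) did not pass.

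Of the 11 non-ATPase subunits of the 19S particle, 3 were higher and 8 did not pass, and their median difference was 0.0071. Psmd6, a subunit of the lid of the particle, read 1680, 1649 and 1607 in Dnajb4+/+ and 1960, 2043 and 1930 in Dnajb4-/- livers. This is a difference of 0.27 (standard error 0.04, adjusted p = 0.00699, limma), or 20.2%. Psmd1, a large scaffold subunit of the base, read 1400, 1382 and 1415 against 1595, 1544 and 1611 (0.18, standard error 0.04, adjusted p = 0.0221). Psmd3, another lid subunit, read 613, 639 and 623 against 689, 691 and 688 (0.14, standard error 0.04, adjusted p = 0.0444). The genotypes did not overlap in any of them. Psmd14, the deubiquitylating enzyme of the lid, differed by 0.0071 (adjusted p = 0.936) and the ubiquitin receptor Psmd4 by -0.11 (adjusted p = 0.145). Seen over the whole 19S particle, 13 of 17 subunits lay above 0 (median 0.057). Of the 17, 9 had all Dnajb4-/- arrays above the others and 2 all below, beside 16.1% and 19.4% of all genes. With the brightest probe set of each gene these values were 12 of 17, a median of 0.029, and 7 and 1. The share of all genes without overlap is not given here for that choice. The median of 0.029 is below that of the alpha ring with the same choice (0.078). With it 5 subunits were called higher, beside 6.53% of all genes.

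Most of these calls were near the threshold. Psmd6 stayed higher without any single array (adjusted p = 0.0202 to 0.0302). Psmc2 was lost without 4 of the 6 arrays (adjusted p = 0.0534 to 0.0661) and held without Dnajb4+/+ replicate 2 or Dnajb4-/- replicate 1, and Psmc4 was also lost without 4 (0.105 to 0.121) and held without Dnajb4+/+ replicate 1 or Dnajb4-/- replicate 3. Psmc1 and Psmd1 were each lost without 5 of the arrays (0.0609 to 0.0900 and 0.0569 to 0.0746) and held without Dnajb4-/- replicate 1 and Dnajb4-/- replicate 2, respectively. Psmd3 was lost without any single array (0.0635 to 0.140).

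**Figure D3:**
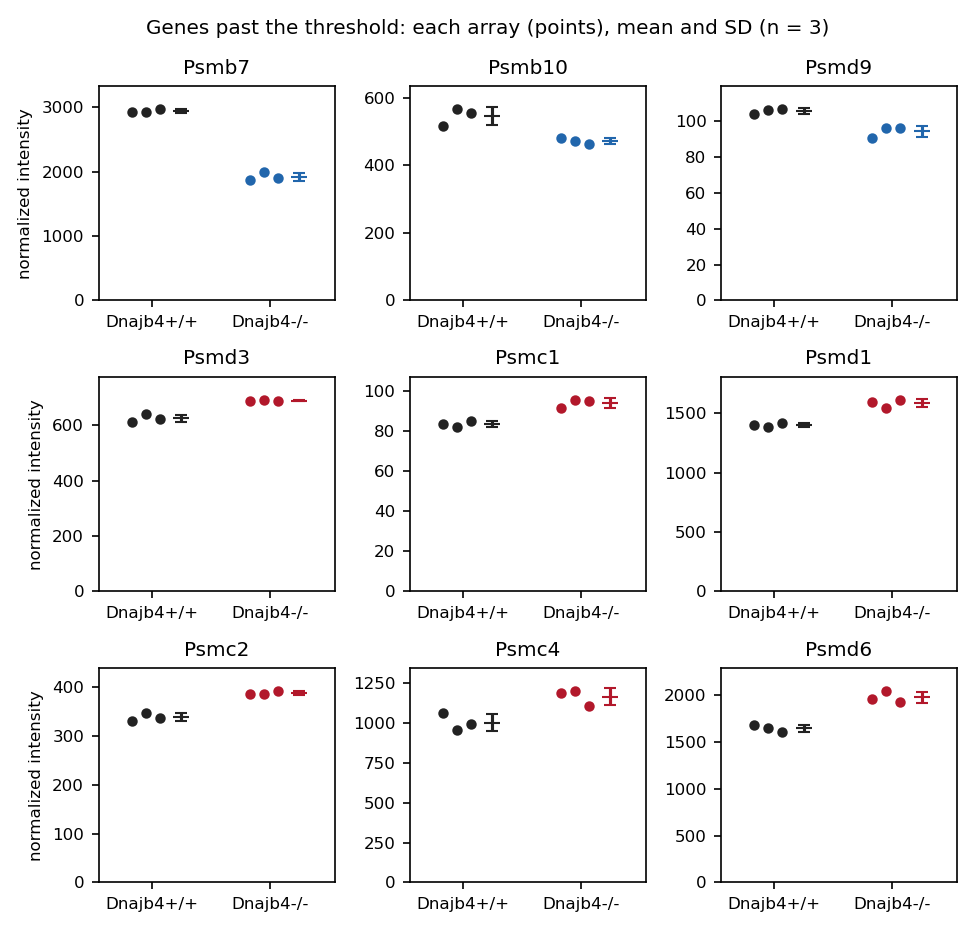
Normalized intensity (y axes, linear scale from 0) of the 9 proteasome genes past the threshold, for each array (points), beside each genotype's mean ± SD (n = 3). Blue marks genes lower and red genes higher in Dnajb4-/- livers, and the genotypes overlap in none of them, with the widest gap for Psmb7.

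Genes with several probe sets showed that some of these differences rested on part of the probes. Among the 27 genes with more than 1 probe set, the probe sets lay on both sides of 0 in 19, all above 0 in 4 and all below 0 in 4. Some opposing probe sets lay far below the array medians, such as the dimmer ones of Psmg4 (8.06 and 9.56) and Psmd2 (10.6 and 9.87). For Psmd6, one probe set rose from 1344, 1309 and 1216 to 1894, 1984 and 1794 (0.55, adjusted p = 0.00289 over all probe sets, limma), while the brighter one read 2099, 2077 and 2124 against 2029, 2103 and 2075 (-0.021, adjusted p = 0.809). The rise of Psmd6 was thus read by 1 of its 2 probe sets, and the brighter probe set alone gave no call. For Psmc4, 1 of 2 probe sets passed (0.36, adjusted p = 0.0475, the other 0.077), and for Psmc2, 1 of 3 (0.30, adjusted p = 0.00772). The probe sets of Psmc1 lay at 0.19 and 0.16 and did not pass singly (adjusted p = 0.0539 for the brighter). The dimmer one read 8.04 in Dnajb4+/+ and 8.98 in Dnajb4-/- livers, far below the array medians. Psmd1 and Psmd3 had only 1 probe set each.

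Over the 103 probe sets, 6 were higher and 4 were lower (5.83% and 3.88%), beside 3.91% and 6.51% of all 45037 probe sets, and no gene had probe sets called in opposite directions. The 6 higher ones read Psmc2, Psmc4, Psmc6 (0.20), Psmd6, Psmd11 (0.30) and Psme4 (0.18), all either 19S subunits or an activator. The 4 lower ones read Psmb7, Psmd9, Psme3 (-0.36) and, at mean signals of 7.96 and 6.74 far below the array medians, Psma1 (-0.24). All 6 higher probe sets have an identifier ending in _x_at, _s_at or _a_at, which marks probes that may read more than 1 transcript or gene, and all 4 lower ones do not. Such probe sets were 34 of the 103, and among all probe sets of this kind 6.48% were higher and 9.18% lower, beside 3.27% and 5.85% of the others. With them left out, 2 of 43 proteasome genes were higher, Psmc1 and Psmd1, and 3 were lower, beside 642 and 1288 of all 16591 genes.

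Taking only the brightest probe set of each gene, 6 of 49 genes were higher and 3 were lower, beside 6.53% and 11.3% of all genes. Higher were Psmc1, Psmc4, Psmd1, Psmd3, Psmd11 and Psme4, and lower were Psmb7, Psmb10 and Psmd9. Psmd11, a lid subunit, read 3155, 3160 and 3224 in Dnajb4+/+ and 3878, 3981 and 3887 in Dnajb4-/- livers with this probe set (0.30, adjusted p = 0.00284, limma), while its mean over 8 probe sets differed by 0.11 (adjusted p = 0.121). Among the 4548 genes above the upper quartile of signal, 33 proteasome genes were tested, and 8 were higher (24.2%) and 7 lower (21.2%), beside 19.0% and 35.1% of all genes in that fit.

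**Figure D4:**
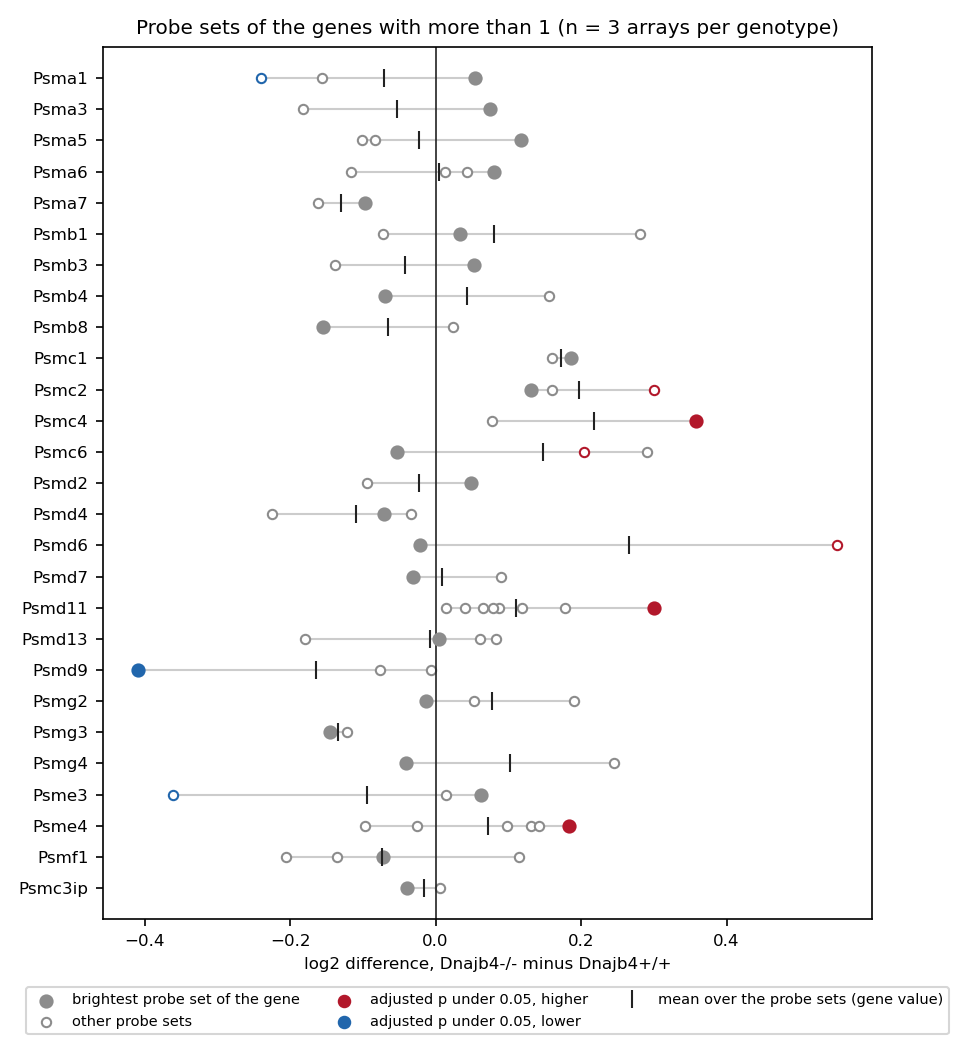
Log2 difference (x axis, Dnajb4-/- minus Dnajb4+/+) of each probe set of the 27 proteasome genes with more than 1, with the brightest filled, the others open and the mean as a tick (n = 3 arrays per genotype). The probe sets of Psmd6 lie at -0.021 and 0.55, and those of 19 genes lie on both sides of 0.

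The chaperones that assemble the 19S base lay below 0, in contrast to the ATPases they bind. Psmd9, Psmd10 and Psmd5 had differences of -0.16, -0.13 and -0.075. In each, all Dnajb4-/- arrays lay below all Dnajb4+/+ arrays, as they did in 19.4% of all genes. Psmd9 passed the test (standard error 0.04, adjusted p = 0.0400, limma) and Psmd5 did not (adjusted p = 0.246). The mean of Psmd9 read 104, 106 and 107 in Dnajb4+/+ and 90.8, 96.4 and 96.0 in Dnajb4-/- livers. Its brightest probe set read 633, 634 and 655 against 472, 476 and 500 (-0.41, adjusted p = 0.00341 over all probe sets), and the others, at Dnajb4+/+ signals of 58.6 and 31.6, differed by -0.076 and -0.0066. The gene's call was lost without any single array (adjusted p = 0.0757 to 0.113) and narrowly with the arrays centred on their brighter probe sets (adjusted p = 0.0515). Psmd10, which encodes the oncoprotein gankyrin, read 213, 208 and 220 against 190, 202 and 195 (adjusted p = 0.0933).

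None of the 4 chaperones of 20S assembly, Psmg1 to Psmg4, passed, and Psmg3 had the largest difference (-0.13, 97.7 ± 4.37 against 89.2 ± 6.56, SD, n = 3, adjusted p = 0.216, limma). The activators bind the ends of the core in place of the 19S particle. Psme1, a subunit of the interferon-inducible activator, differed by -0.053 (adjusted p = 0.467), and Psme3, the nuclear activator of that family, by -0.095 (adjusted p = 0.194). The probe set of Psme3 that passed read 137, 138 and 140 in Dnajb4+/+ and 119, 105 and 101 in Dnajb4-/- livers, and the brightest differed by 0.062. Psme4, a single-chain activator that acts on acetylated histones, differed by 0.072 (adjusted p = 0.344), with its brightest probe set at 1615, 1597 and 1608 against 1827, 1842 and 1807 (0.18, adjusted p = 0.0403 over all probe sets). The inhibitor Psmf1 differed by -0.074 (adjusted p = 0.401), and Psme3ip1, which encodes a protein that binds the activator of Psme3, by -0.10 (adjusted p = 0.178).

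Promoter sequences are shown for the genes past the threshold whose window held the ETS site or the antioxidant response core described here, which are Psmc1, Psmc2, Psmd6 and Psmd9. The windows of Psmc4, Psmd1 and Psmb10 held none of the motifs searched and are not shown. RefSeq windows of GRCm38.p6, from 250 bases before to 50 bases after the start of the gene, were available here for 41 of the 49 genes. The site of ETS factors, CCGGAAG, was found on either strand in 8.86% of 32851 mouse promoter windows and in 17 of the 44 windows of proteasome genes (38.6%). It was present in 9 of the 14 19S subunits with a window and in 1 of the 11 alpha and constitutive beta subunits of the 20S core. Of the higher genes with a window, 3 of 5 held it, namely Psmc1 (chr12:100109952-100110251, plus strand), Psmc2 (chr5:21785025-21785324, plus strand) and Psmd6 (chr14:14120896-14121195, minus strand), and of the lower genes 0 of 2. The windows of 6 other 19S subunits, none past the threshold, held it too. Capitals mark the motif, which reads CTTCCGG where it lies on the opposite strand.
Psmc1: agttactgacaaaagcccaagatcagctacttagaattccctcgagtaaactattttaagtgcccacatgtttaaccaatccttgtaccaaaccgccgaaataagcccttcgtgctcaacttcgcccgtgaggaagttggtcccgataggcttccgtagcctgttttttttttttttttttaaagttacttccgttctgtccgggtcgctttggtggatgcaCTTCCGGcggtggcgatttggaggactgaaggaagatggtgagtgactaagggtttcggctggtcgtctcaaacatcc
Psmc2: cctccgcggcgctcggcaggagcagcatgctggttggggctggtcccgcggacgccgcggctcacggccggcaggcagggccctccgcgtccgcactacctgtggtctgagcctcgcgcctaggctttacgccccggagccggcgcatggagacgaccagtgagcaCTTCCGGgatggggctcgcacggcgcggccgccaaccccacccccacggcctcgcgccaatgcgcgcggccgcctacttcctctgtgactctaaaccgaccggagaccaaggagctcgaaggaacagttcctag
Psmd6: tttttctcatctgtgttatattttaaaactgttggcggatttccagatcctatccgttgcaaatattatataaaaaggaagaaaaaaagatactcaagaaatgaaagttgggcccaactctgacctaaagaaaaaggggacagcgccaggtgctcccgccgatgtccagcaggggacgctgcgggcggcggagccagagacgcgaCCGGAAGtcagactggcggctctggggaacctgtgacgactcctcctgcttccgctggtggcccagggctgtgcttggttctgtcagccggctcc
The match begins 28 bases before the start in Psmc1, 84 in Psmc2 and 45 in Psmd6, and a further Psmc2 window held it at 24. These windows differ in base composition, with a median GC content of 60.3% for 19S subunits, 55.7% for those 20S subunits and 52.7% for all genes. A match is a stretch of letters and does not show binding.

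The core of the antioxidant response element, TGACNNNGC, which is bound by NRF2 and the related factor of Nfe2l1 together with small Maf proteins, was searched for in the same way. It was found in 12.4% of all windows and in 13.6% of those of proteasome genes. Of the 7 genes past the threshold with a window only Psmd9 (chr5:123227940-123228239, plus strand) held it, beginning 31 bases before the start and shown in capitals.
Psmd9: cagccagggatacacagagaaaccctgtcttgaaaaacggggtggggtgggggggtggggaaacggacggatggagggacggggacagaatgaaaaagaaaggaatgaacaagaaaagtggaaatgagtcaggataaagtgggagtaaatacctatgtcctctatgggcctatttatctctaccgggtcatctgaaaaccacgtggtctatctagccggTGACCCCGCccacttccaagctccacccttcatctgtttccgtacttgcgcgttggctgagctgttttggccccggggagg
Of the other motifs, CCAAT was found in 36.4% of proteasome windows beside 37.4% of all, GAAANNGAA of the interferon-stimulated response element in 15.9% beside 8.56%, and TTCNNNGAA of STAT factors, which can overlap an ETS match, in 6.82% beside 8.30%.

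Regulators of proteasome genes were examined beside the subunits. Of 12 measured, 4 were lower in Dnajb4-/- livers and none higher, beside 9.57% lower and 5.09% higher of all genes. Nfe2l2, which encodes NRF2, read 213, 191 and 202 in Dnajb4+/+ and 159, 172 and 160 in Dnajb4-/- livers (-0.30, standard error 0.06, adjusted p = 0.0143, limma). The small Maf genes, whose proteins pair with NRF2, were all lower, with Maff at -0.60 (135 ± 12.5 against 88.9 ± 6.37, SD, n = 3, adjusted p = 0.00416), Mafg at -0.26 (adjusted p = 0.0158) and Mafk at -0.24 (adjusted p = 0.0463). Nfe2l1, whose protein raises proteasome genes when the proteasome is inhibited, differed by -0.075 (adjusted p = 0.223). Maff was lower without any single array, Mafk was lost without any (adjusted p = 0.0587 to 0.125), Nfe2l2 was lost without Dnajb4-/- replicate 1 or 3 (up to 0.0535) and Mafg without Dnajb4-/- replicate 2 (0.0529).

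Beside 9.57% of all genes, 2 of 13 factors associated with the proteasome were lower. These were Ubqln4, a shuttle for ubiquitylated proteins (140 ± 3.85 against 117 ± 3.20, SD, n = 3, -0.26, adjusted p = 0.00835, limma), and Zfand5, an activator of the proteasome (-0.20, adjusted p = 0.0203, lost without 4 of the 6 arrays at up to 0.0696). The related genes Ubqln1 (0.18, adjusted p = 0.0650) and Ubqln2 (0.15, adjusted p = 0.118) lay the other way, without overlap, and did not pass. The median difference of the 13 factors was 0.075. Pomp, the maturation factor of the core, differed by -0.0011 (adjusted p = 0.987), and Sem1, the smallest 19S subunit, by 0.075 (adjusted p = 0.252). Among 12 genes of the VCP unfoldase and its cofactors, which deliver proteins to the proteasome, 1 was higher and 2 were lower. Of all genes 5.09% were higher and 9.57% lower. Syvn1, the ubiquitin ligase of the endoplasmic reticulum, read 492, 461 and 484 against 609, 608 and 589 (0.33, adjusted p = 0.00300). The VCP cofactors Faf1 (-0.25, adjusted p = 0.0119) and Ubxn6 (-0.15, adjusted p = 0.0463, lost without any single array at 0.0834 to 0.131) were lower. Of the ubiquitin genes and activating enzymes only Uba6 was measured with a single symbol, at 0.063.

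The immunoproteasome supplies peptides for MHC class I and is induced by interferon, so these genes were also examined. Of 12 genes of antigen processing, 3 were lower and none higher, beside 9.57% lower and 5.09% higher of all genes. Nlrc5, the transactivator of MHC class I genes, read 143, 139 and 137 in Dnajb4+/+ and 111, 101 and 109 in Dnajb4-/- livers (-0.39, adjusted p = 0.00258, limma). The peptide editors Tapbp (-0.26, adjusted p = 0.0140, 0.0505 without Dnajb4-/- replicate 1) and Tapbpl (-0.20, adjusted p = 0.0227, lost without 4 of the 6 arrays at up to 0.0753) were lower. The peptide transporter Tap1 differed by -0.00056 (adjusted p = 0.995), at a mean signal of 20.6 in both genotypes, below the array medians. The transporter gene Tap2 read 141 ± 4.87 and 146 ± 4.30 (SD, n = 3) and differed by 0.052 (adjusted p = 0.489). Of 16 interferon regulators and targets, 4 were lower and 1 was higher, beside the same shares of all genes. Gbp2, a guanylate-binding protein, was lower (82.9 ± 5.83 against 50.6 ± 2.18, SD, n = 3, -0.71, adjusted p = 0.000626), and so were the transcription factors Irf8 (-0.34, adjusted p = 0.0207, lost without 4 of the 6 arrays at up to 0.0722) and Irf1 (-0.22, adjusted p = 0.00900, named here after its value was seen) and the chemokine Cxcl9 (-0.27, adjusted p = 0.0440, lost without any single array at 0.0544 to 0.112). Rsad2, the antiviral protein viperin, was higher (124 ± 7.52 against 171 ± 0.182, SD, n = 3, 0.46, adjusted p = 0.00172).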

How the data were processed

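Total liver RNA of 3 Dnajb4+/+ and 3 Dnajb4-/- mice was measured on Affymetrix mouse expression arrays. Per the labels and the study's methods, the authors used GeneSpring with GCRMA, a method that models background from probe GC content and brings arrays to a common distribution, and then centred on a global median. They deposited linear intensities, 1 for each of 45101 probe sets. Scanner signals and detection calls were not used here. Groups, age, sex and replicate numbers were taken from the labels, which call the arrays biological replicates.

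Controls (64 probe sets) were left out. The platform annotation names 1 gene for 34958 probe sets, more than 1 for 932 and no gene for 9211, and 34945 were used. Their log2 intensities were averaged per gene. limma 3.58.1 in R 4.3.3 was used for the comparison of genotypes (lmFit, eBayes with default settings, two-sided, dim genes kept), with Benjamini-Hochberg adjustment over all 18193 genes, or over all 45037 probe sets for single probe sets, at a threshold of 0.05. The procedure was tested on simulated data. The gene IDs of all 103 proteasome probe sets were found in RefSeq (GRCm38.p6), which also gave the promoter windows. Plots were made in python 3.11.15 with matplotlib 3.10.9.

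The proteasome genes and all gene lists were chosen with earlier results of these data known, and the motifs with the gene results known. Named were all proteasome genes past the threshold, the member of each role with the largest difference, the catalytic subunits, the activators and the inhibitor, and of each pathway list up to 4 called genes, or up to 2 where none was called. Psma7, Psmc6, Psmd10 and Psmd11, outside the threshold at an adjusted p of 0.0637 to 0.121 (limma), and other genes were named after their values were seen. Alternatives were another normalization and centring, filters on dim genes, other gene-level values, an offset of 16, another variance model, the methods' t-test, the replicate number as a block and leaving out each array. Genes read only by probe sets of several symbols were not analysed here.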

Additional observations from a re-analysis of the deposited data

How the results depend on the processing

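Of the 9 genes past the threshold, Psmb7 was called lower in all 18 alternatives. Psmd6 was called in 16 and differed by -0.021 with the brightest probe set or without probe sets ending in _x_at, _s_at or _a_at. The others were called in 8 to 12, and none was called in the opposite direction. Numbers in brackets below count all genes called in the same direction, of 18193 unless stated. The count of higher genes, 6 (926), fell to 2 without those probe sets (642 of 16591). Without single arrays it was 1 to 3 (516 to 657). It rose to 8 above the median signal (1119 of 9096) and above the upper quartile (864 of 4548). Also 8 were higher with the linear mean of probe sets (1282), an offset of 16 (1298) or an intensity trend and robust prior (1270). By the methods' t-test 9 were higher unadjusted (2062) and 5 with Benjamini-Hochberg adjustment (695). The count of lower genes, 3 (1741), was 1 with arrays centred on brighter probe sets (1473) and 4 with the linear mean (2177). It was 5 above the median signal (2129 of 9096) and 7 above the upper quartile (1596 of 4548). With the offset 5 were lower (2304), and 5 with the trend and robust prior (2250). By the unadjusted t-test 10 were lower (2854), and without single arrays 1 to 2 (1036 to 1352). The 10 probe sets past the threshold became 19 with the offset, 29 with the trend and robust prior and 36 by the unadjusted t-test. Without single arrays they became 5 to 6. The share of all probe sets called in these settings is not given here, so these counts do not single out the proteasome. Higher genes made up 34.7% of the calls over all genes, 44.5% with quantile normalization and 50.5% with that centring. That centring moved the median of all genes from 0.0075 to 0.040, and 7 proteasome genes were then higher, beside 1502 of all genes. Single genes changed sign with the brightest probe set, among them Psmd6 (-0.021), Psmc6 (-0.053), Psme3 (0.062) and, outside the family, Uba6 (-0.024). So did Psma1 (0.055), Psma3 (0.075), Psma5 (0.12), Psmb3 (0.053) and Psmb4 (-0.070). Psmd2, Psmd7, Psmd13, Psmg2 and Psmg4 also changed sign with that choice. Among those that changed sign with that centring was Psmb6 (0.0032). The ratio of Psmb9 over Psmb6 ranged from -0.063 to 0.0032 without single arrays, reversed without Dnajb4-/- replicate 1. The cause of these changes was not tested.

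The replicate numbers did not pair the arrays: deviations of same-numbered arrays correlated at -0.021, -0.14 and 0.0091. No Dnajb4+/+ array correlated best with the Dnajb4-/- array of its own number. With the replicate block, 1 proteasome gene was higher and 1 was lower, beside 505 and 1024 of all 18193 genes, and 3 proteasome probe sets passed. The number of arrays and, for dim probe sets, the signal over background limit what can be called.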
